A study of Sus scrofa with 48 samples.

Results

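The genes described here code for parts of the skeletal muscle sarcomere and for 2 enzymes that are abundant in muscle, measured in the fat and the liver of pigs. The labels do not name the fat depot. The genes were TTN, NEB, CA3, ACTA1, MYL1, TNNC2, TNNT3 and CKM, each taken with every probe set that carried its symbol in the array annotation. Of these 8 genes 7 had a probe set, and none carried the symbol ACTA1, which left 7 of 6765 genes with a symbol of their own, read by 9 of 23999 probe sets. TTN and CA3 had 2 probe sets each and the other genes 1. For TTN and CA3 the probe set with the higher mean log2 signal in fat is given first and is meant unless the second is named. Symbols serve as identifiers, and no genome position is given.

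The tissues came from 24 Yorkshire gilts of 6 months, all from a line with high feed efficiency that had been selected for low residual feed intake. In each tissue 6 gilts were N298 and fasted, 6 D298 and fasted, 6 N298 and fed, and 6 D298 and fed. Fasting lasted 3 days, and fed gilts ate freely. N298 gilts were homozygous for the N298 variant of MC4R, a melanocortin receptor that acts on appetite and energy use, and D298 gilts for its wildtype form. The study set fasting against feeding in both genotypes, with 1 array for each tissue of each gilt.

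The sarcomere is the contractile unit of striated muscle, in which myosin filaments pull on actin filaments when calcium binds to troponin. Titin (TTN) spans the sarcomere as a spring, nebulin (NEB) runs along the actin filament, MYL1 is an alkali light chain of fast myosin, TNNC2 is the calcium-binding troponin subunit of fast fibres, and TNNT3 is the fast troponin subunit that binds tropomyosin. CKM, the muscle creatine kinase, buffers ATP in contracting fibres. Neither adipocytes nor hepatocytes build sarcomeres. CA3, carbonic anhydrase 3, has low hydration activity compared with its relatives, and is known from slow muscle fibres, adipocytes and, in rodents, liver.

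In fat the sarcomere genes and CKM differed widely between single gilts, and no difference between the feeding states could be resolved. In bulk tissue, fewer cells of a type and less RNA per cell cannot be told apart. TTN had a lowest, median and highest signal of 32.2, 545 and 12258 on the 12 fasted fat arrays, against 39.6, 1035 and 7352 on the 12 fed ones. NEB had 70.5, 433 and 8855 in fasted fat, against 96.6, 963 and 5004 in fed fat. MYL1 had 35.7, 1964 and 21328 in fasted fat, against 5.79, 3007 and 15818 in fed fat. The ranges of the feeding states lay almost on top of each other in these 3 genes, and both held gilts with very low and very high signal.

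The troponins and creatine kinase showed the same spread. TNNC2 had 10.1, 1365 and 21181 in fasted fat, against 34.8, 1874 and 14268 in fed fat, as lowest, median and highest signal. TNNT3 had 7.69, 306 and 8994 in fasted fat, against 5.69, 530 and 4384 in fed fat. CKM had 46.5, 2196 and 22715 in fasted fat, against 100.2, 3192 and 14682 in fed fat. For all 6 genes the fed median was the higher and the fasted maximum the higher, so that the middle and the top of the groups ran in opposite directions.

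**Figure D1:**
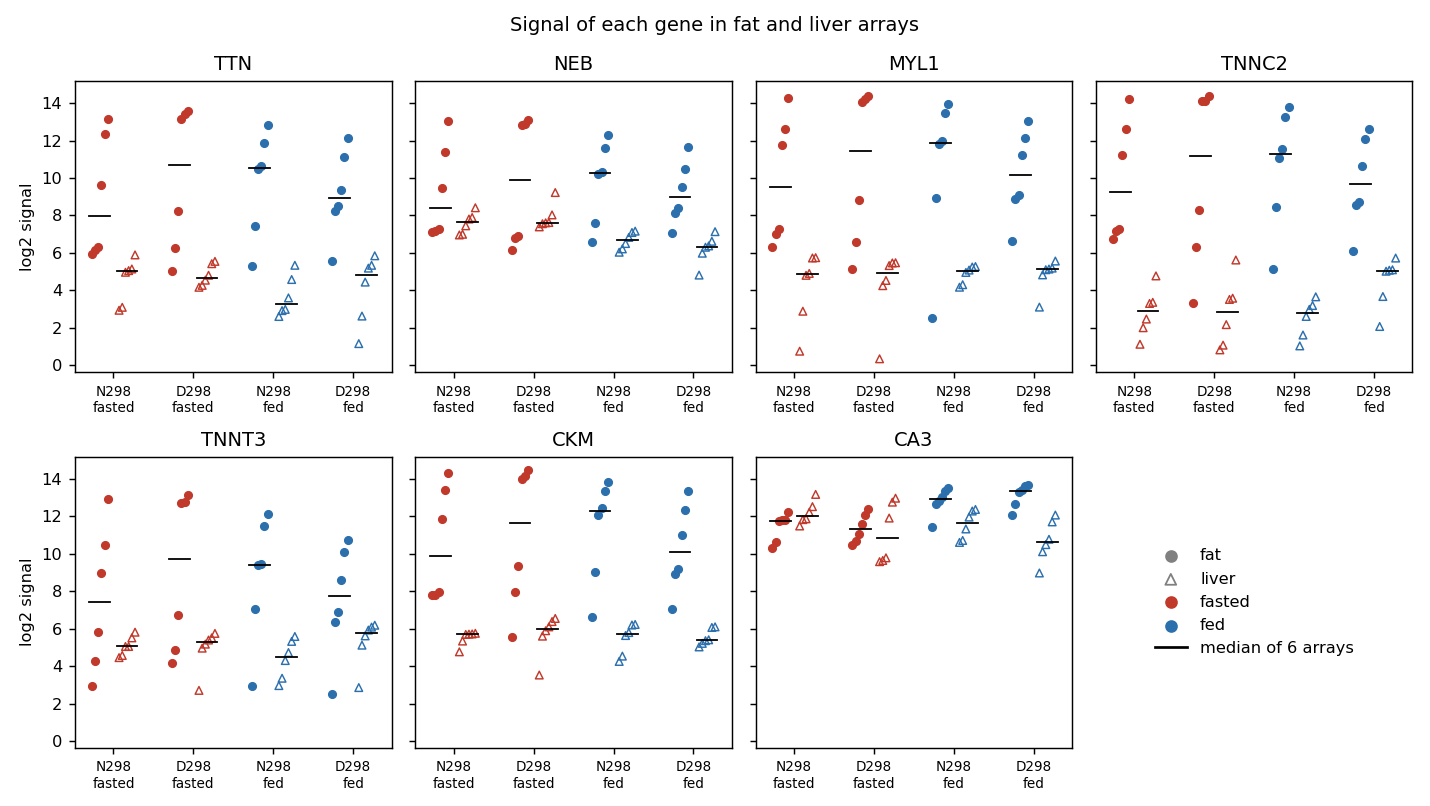
Log2 signal (vertical axis) of the 6 sarcomere and creatine kinase genes and of CA3 in the 4 groups of genotype and feeding (horizontal axis). Filled circles are fat arrays, open triangles liver arrays, red is fasted, blue fed, and bars are medians of 6 arrays. The 6 muscle genes spread widely in fat, and all but NEB stay under a signal of 100 in liver, while CA3 is narrower and lower in fasted than in fed fat.

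The spread within groups was among the widest on the array. After group and replicate number were taken out, the residual SD of log2 signal in fat was 3.52 for MYL1, 3.44 for TNNC2, 3.41 for TNNT3, 3.04 and 2.78 for the TTN probe sets, 3.03 for CKM and 2.49 for NEB. At least 99.8% of all probe sets had a smaller one than each of these. The residual SD of CA3 was 0.74, which exceeded that of 72.3% of probe sets. Within groups the highest CA3 signal in fat was 3.68 times the lowest in N298 fasted, 3.72 in D298 fasted, 4.30 in N298 fed and 3.05 in D298 fed gilts.

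A fasting difference in the sarcomere genes could not be resolved against this spread. Fasted minus fed log2 signal in fat was -0.02 ± 1.07 (SE, 95% interval -2.25 to 2.21) for TTN, and adjusted p was 0.994 in limma. It was 0.02 ± 0.88 (SE) for NEB, -0.11 ± 1.24 (SE) for MYL1, -0.17 ± 1.21 (SE) for TNNC2, 0.18 ± 1.20 (SE) for TNNT3 and -0.06 ± 1.07 (SE) for CKM. The second TTN probe set gave 0.49 ± 0.98 (SE). None of these 7 probe sets was called at an adjusted p under 0.05, where 25.2% of all probe sets were, 3633 higher and 2415 lower in fasted fat. That split depends on the scaling: with each array centred on its median, 2302 were higher and 3032 lower. The narrowest interval of the 6 genes, that of NEB, ran from -1.80 to 1.85, so a change of several fold could have been missed. Genotype and the interaction of genotype and feeding gave no call in fat among all probe sets in limma (1321 and 1368 at an unadjusted p under 0.05), the 9 members included.

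The genes were high or low together from gilt to gilt. Their common level was summarised as the sarcomere signal, the mean over the 6 genes of log2 signal less its mean over the 24 fat arrays. It spanned 8.91 log2 units, a range of 482-fold. The lowest array, N298 fed 2, had MYL1 at 5.79 and TNNT3 at 7.53, under their liver medians of 32.6 and 35.4. The range thus rests in part on very dim signals. The lowest, median and highest sarcomere signal was -4.70, -0.43 and 4.06 in fasted fat, against -4.85, 0.77 and 3.43 in fed fat. By genotype the median was 0.98 in N298 fat and -0.50 in D298 fat, with ranges that overlapped almost completely.

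Set in order, the arrays left 1 gap wider than the rest, of 1.72 log2 units or 19.3% of the range, where the next widest was 1.14. Below it lay 11 arrays (6 fasted, 5 fed) and above it 13 (6 fasted, 7 fed; 7 N298, 6 D298). The gap divided the arrays in the same way for each of the 6 genes, with no overlap. Since it was found in the mean of these same genes, that agreement adds little of its own. TNNC2, for example, ran between 1602 and 21181 above the gap and between 10.1 and 415 below it, and NEB between 709 and 8855 above it and between 70.5 and 338 below it. The same 4 arrays held the highest signals of all 6 genes, namely the fat of D298 fasted gilts 4, 5 and 6 and of N298 fasted gilt 6. What brought more or less of these transcripts into a fat sample was not tested.

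**Figure D2:**
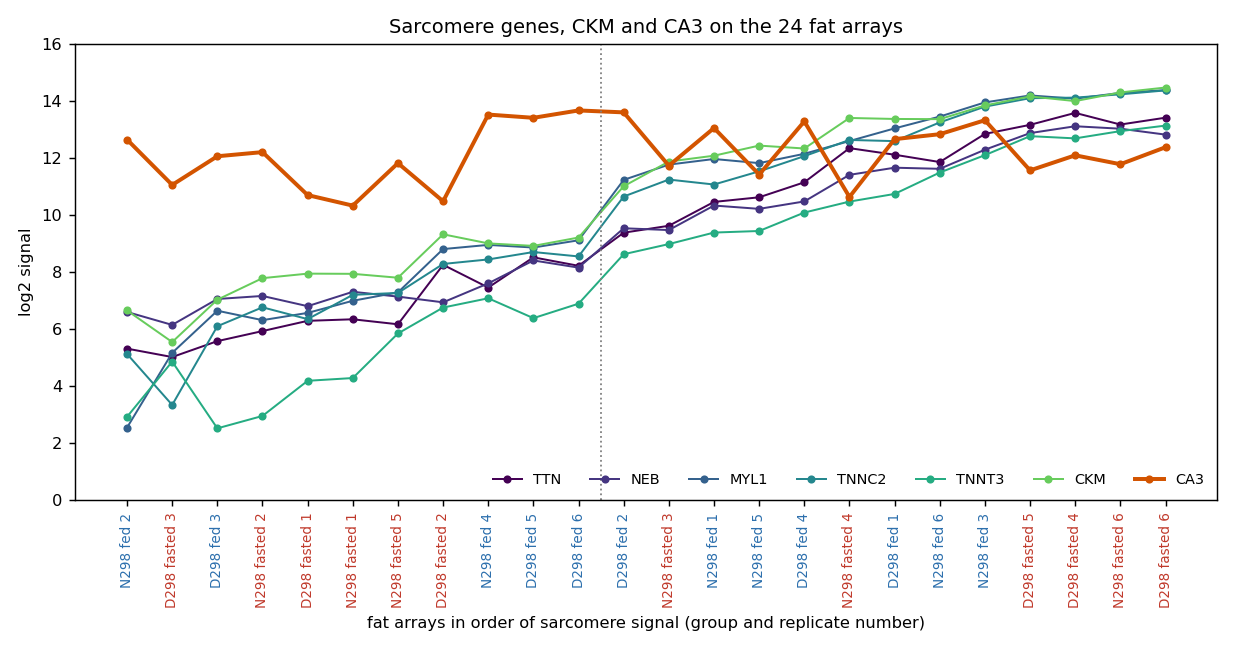
Log2 signal (vertical axis) of TTN, NEB, MYL1, TNNC2, TNNT3, CKM and CA3 on the 24 fat arrays, put in order of sarcomere signal (horizontal axis, group and replicate number, fasted in red, fed in blue). The dotted line marks the widest gap, with 11 arrays to its left and 13 to its right. The 6 muscle genes climb together, and the 4 arrays at the right end are all fasted, while the CA3 line does not climb with them.

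Pairs of these genes correlated closely over the 24 fat arrays after group means were removed. Over the 15 pairs Pearson's r was 0.947 to 0.994 and Spearman's rho 0.950 to 0.993, with a permutation p of 1e-05 each, the smallest that 100000 permutations can give (adjusted 1.41e-05 over 24 relations computed). Without the 2 arrays farthest from the median, r was 0.936 to 0.993. Within the fasted arrays r was 0.961 to 0.996, and within the fed arrays 0.936 to 0.992. On the arrays above the gap r was 0.935 to 0.976, and on those below it, where several signals are dim, 0.679 to 0.988. The pair of TTN probe sets gave r = 0.978. The genes most like the sarcomere signal, by Pearson's r over the 24 fat arrays with group and replicate number removed, were ENO3 (0.991), the muscle enolase, SLN (0.991), which inhibits the calcium pump of the sarcoplasmic reticulum, MYLPF (0.987), the regulatory light chain of fast myosin, CMYA5 (0.982), a muscle anchoring protein, and KLHL41 (0.982), which acts in myofibril assembly.

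Many other muscle genes followed the same scale. A slope gives the change in a gene's log2 signal per log2 unit of sarcomere signal within groups. Of 60 muscle genes outside the rule that were measured, 34 had a slope above 0 at an adjusted p under 0.05 and none below, with a median slope of 0.40, where 0.488% of all probe sets were called and the median slope was -0.00. The 117 called probe sets comprised 116 with a slope above 0 and 1 below. Those with a symbol represented 62 genes, of which 6 entered the signal itself, 37 were muscle list genes (any of their probe sets counting), 1 was on another list and 18 were on no list. CA3 was not among them.

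Both fibre types were represented. Fast fibre genes with called slopes included MYH2 (1.33 ± 0.10 SE), a fast myosin heavy chain, the inhibitory fast troponin TNNI2 (1.21 ± 0.06 SE), MYLPF (1.15 ± 0.04 SE), and ATP2A1 (1.05 ± 0.06 SE), the calcium pump of fast fibres. RYR1, the calcium release channel, had 0.98 ± 0.07 (SE). Slow fibre genes were called too: MYL2 (0.73 ± 0.13 SE), TNNT1 (0.72 ± 0.15 SE), TNNC1 (0.71 ± 0.13 SE) and MYH7 (0.60 ± 0.11 SE), with TNNI1 at 0.69 ± 0.16 (SE, adjusted p = 0.0738) outside the threshold. The slopes of the genes that form the signal, 0.78 for NEB to 1.11 for MYL1, follow from its construction. The 26 slopes of muscle list genes that were not called included those of genes that other cells also express, such as TPM1 (-0.02 ± 0.02 SE), TPM3 (-0.01 ± 0.01 SE), FHL1 (-0.03 ± 0.02 SE) and FABP3 (-0.02 ± 0.02 SE). The slope of the acetylcholine receptor subunit CHRNA1 was not called either.

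**Figure D3:**
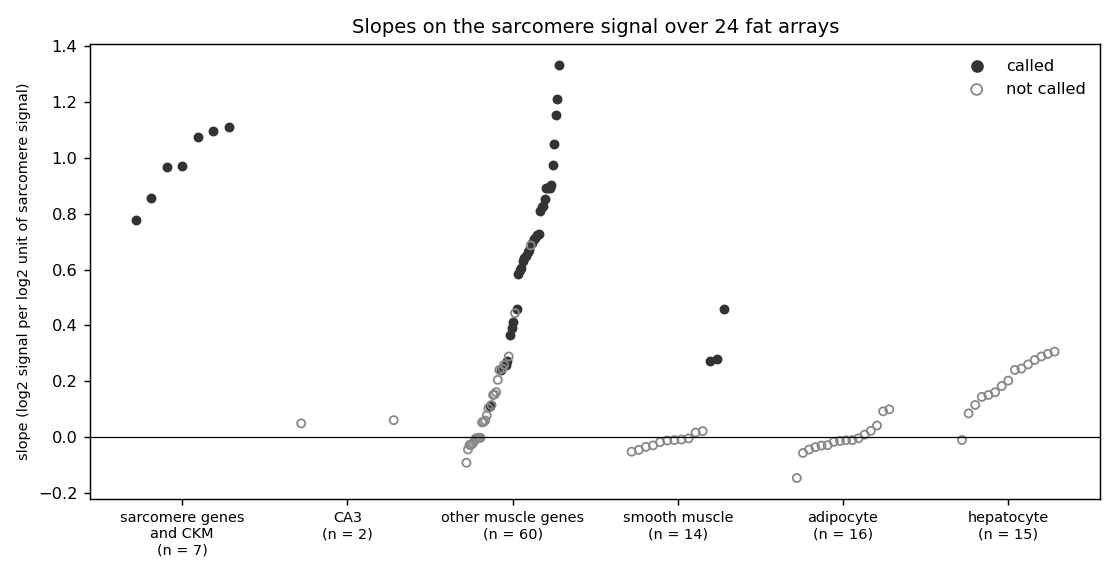
Slope of each probe set on the sarcomere signal (vertical axis, log2 signal per log2 unit) over 24 fat arrays, for the sarcomere genes and CKM, CA3, other muscle genes and 3 lists of other cell types (horizontal axis). Filled points had an adjusted p under 0.05. In the muscle list 34 of 60 were called, against 0.488% of all probe sets, the hepatocyte points have a median of 0.20 with no call, and CA3 lies at 0.05 and 0.06.

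The slope was also fitted for markers of other cell types. Since 0.488% of all probe sets were called, nothing is read from a count of 0 in a short list. The 16 adipocyte genes had no called slope and a median of -0.01, and the 15 hepatocyte genes had no called slope and a median of 0.20. Of 14 smooth muscle genes 3 were called (DES, TPM2 and SYNM), all of which skeletal muscle also uses, and the list's median was -0.01. Summed over its 16 genes the adipocyte signal was 86498, 106514 and 117146 in fasted fat, against 92507, 119271 and 142866 in fed fat (lowest, median, highest), and 17284 to 30775 over all liver arrays. The adipocyte sum thus exceeded the highest liver array on every fat array.

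Fasting was also tested for the other muscle genes in fat. Of the 60, 3 were called higher and 4 lower in fasted fat, where 25.2% of all probe sets were called, and the median was 0.24 log2 against 0.08 over all probe sets. FBXO32, a ubiquitin ligase of muscle atrophy that other tissues also express, was higher by 0.95 ± 0.30 (SE), TPM1 by 0.56 ± 0.09 (SE) and FHL1 by 0.31 ± 0.08 (SE). CHRNA1, a subunit of the acetylcholine receptor, fell by 2.08 ± 0.25 (SE), COX7A1, a cytochrome oxidase subunit, fell by 1.40 ± 0.25 (SE), the fatty acid binding protein FABP3 fell by 0.91 ± 0.10 (SE) and the chaperone CRYAB fell by 0.88 ± 0.12 (SE). All 7 had slopes that were not called, so none of the 34 genes with a called slope was among them. At equal sarcomere signal, where 25.3% of all probe sets were called, 15 of the 60 were higher and 4 lower.

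CA3 was lower in fasted than in fed fat. CA3 had a lowest, median and highest signal of 1284, 3209 and 5314 in fasted fat, against 2735, 9222 and 13011 in fed fat. The groups overlapped: 5 of 12 fasted arrays lay below the lowest fed array, and 10 of 12 fed arrays lay above the highest fasted one. Means were 3002 ± 1380 in fasted fat and 8662 ± 3274 in fed fat (SD, n = 12 each). CA3 fell to 0.339 of the fed level (log2 -1.56 ± 0.26 SE, 95% interval -2.11 to -1.01, adjusted p = 0.000145 in limma). The second probe set gave -1.59 ± 0.27 (SE, adjusted p = 0.000155).

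CA3 was called lower in both genotypes. In N298 fat CA3 had a lowest, median and highest signal of 1284, 3454 and 4720 when fasted, against 2735, 7889 and 11765 when fed. In D298 fat it had 1427, 2575 and 5314 when fasted, against 4268, 10420 and 13011 when fed. Of the 6 fed arrays 5 lay above every fasted array in each genotype, and of the 6 fasted arrays 2 in N298 and 4 in D298 fat lay below every fed one. CA3 fell by 1.38 ± 0.37 in N298 fat (SE, adjusted p = 0.0138, limma; 15.5% of probe sets called) and by 1.74 ± 0.37 in D298 fat (SE, adjusted p = 0.0035; 12.6% called). The call in N298 fat was lost without replicate 1 (-1.12, adjusted p = 0.0814) and without replicate 4 (-1.08, adjusted p = 0.0801), while that in D298 fat held without each replicate (-1.88 to -1.46). The difference of the fasting responses, N298 minus D298, was 0.35 ± 0.53 (SE, 95% interval -0.75 to 1.45, adjusted p = 0.966), and N298 minus D298 over both feeding states was -0.14 ± 0.26 (SE).

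CA3 is made in muscle as well as in adipocytes, so the feeding states were also compared at equal sarcomere signal. That signal includes the fast fibre genes MYL1, TNNC2 and TNNT3 and no gene particular to slow fibres. Equal sarcomere signal therefore need not mean equal slow fibre content. With the sarcomere signal as a covariate, fasted minus fed CA3 was -1.56 ± 0.26 (SE, adjusted p = 0.000153, limma), and the second probe set gave -1.59 ± 0.27 (SE). Within genotypes the value was -1.35 ± 0.37 in N298 (SE, adjusted p = 0.0170, limma) and -1.77 ± 0.37 in D298 (SE, adjusted p = 0.00326). The N298 call was lost without replicate 1 (-1.11, adjusted p = 0.0857) or 4 (-0.95, adjusted p = 0.126). It was also lost with the RNA quality ratio described below (-1.06, adjusted p = 0.190) and on either side of the gap alone (-1.65, -1.29). The D298 call was lost on the arrays above the gap alone (-1.33, adjusted p = 0.538). The mean sarcomere signal was -0.01 in fasted and 0.01 in fed fat, so the covariate could hardly move the difference averaged over genotypes. The slope of CA3 on the sarcomere signal was 0.05 ± 0.05 (SE, 95% interval -0.06 to 0.16, adjusted p = 0.943, limma). Over the 60 muscle genes outside the signal the median slope was 0.40. The 0.97 ± 0.02 (SE) of CKM follows from its place in the signal. CA3 had a signal of at least 1284 also on the arrays below the gap. On such a base a slope in log2 does not give the size of a muscle part of CA3, which was not tested. With a slope for each feeding state that of CA3 was 0.04 ± 0.07 in fasted and 0.05 ± 0.08 in fed fat (SE), and the difference of slopes was -0.01 ± 0.11 (SE). With these slopes the fasting difference in CA3 was -1.53 ± 0.40 at the lower quartile of sarcomere signal, -1.57 ± 0.28 at the median and -1.59 ± 0.38 at the upper quartile (SE). These values rest on a straight line for each feeding state. The fits on each side of the gap, given below, lay farther apart.

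**Figure D4:**
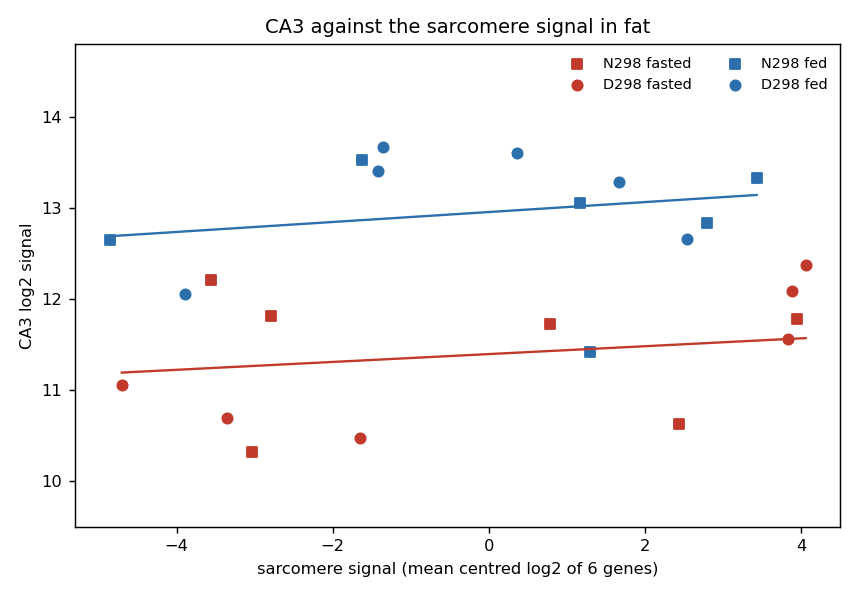
CA3 log2 signal (vertical axis) against the sarcomere signal (horizontal axis, mean centred log2 of 6 genes) on 24 fat arrays; squares are N298, circles D298, red fasted, blue fed. Lines have the fitted slope of each feeding state, 0.04 in fasted and 0.05 in fed fat. At low and at high sarcomere signal most fed points lie above the fasted ones, and 2 of the 12 fed arrays lie within the fasted range.

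The arrays on each side of the gap were also taken alone, a division made after the values were seen. On the arrays with low sarcomere signal CA3 had a lowest, median and highest signal of 1284, 1892 and 4720 in fasted fat (n = 6), against 4268, 10875 and 13011 in fed fat (n = 5). On those with high sarcomere signal it had 1585, 3454 and 5314 in fasted fat (n = 6), against 2735, 8479 and 12410 in fed fat (n = 7). Fitted on the low arrays alone, without the replicate number, CA3 fell by 1.97 ± 0.35 (SE, adjusted p = 0.0027), and on the high arrays alone it fell by 1.22 ± 0.30 (SE, adjusted p = 0.0194). With the covariate the high arrays alone gave -1.31 ± 0.37 (SE, adjusted p = 0.0675), which is outside the threshold.

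Within groups CA3 correlated weakly with the sarcomere genes. Over the 24 fat arrays its r with the 6 genes was 0.259 to 0.347 and its rho 0.247 to 0.335, with permutation p of 0.0951 to 0.223 for r (adjusted 0.127 to 0.233) and 0.111 to 0.243 for rho. Without the 2 arrays farthest from the median r was 0.238 to 0.301. It was 0.392 to 0.485 within fasted arrays and 0.040 to 0.220 within fed arrays. The pair of CA3 probe sets gave r = 0.976. The genes most like CA3 within groups, by the same measure as above, were COLGALT1 (0.802), a collagen galactosyltransferase, and RGS10 (0.775), a regulator of G protein signalling. ZNHIT2 (0.753), TENM4 (0.751) and IFNGR1 (0.717), a chain of the interferon gamma receptor, came next. None of these 5 genes was called for fasting in fat, where 25.2% of all probe sets were, and nothing is read from so short a list. They were picked as the highest among 6765 genes, and whether chance alone gives such values was not tested.

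RNA quality and the markers of other cell types were set beside CA3. The log2 ratio of the 3' to the 5' GAPDH control probe sets, a sign of RNA quality, had a median of 1.82 (range 0.59 to 2.44) in fasted fat and 1.22 (range 0.61 to 1.51) in fed fat. With this ratio as a covariate CA3 fell by 1.36 ± 0.29 (SE, adjusted p = 0.0022, limma) over both genotypes. In N298 fat alone the call was then lost, at -1.05 ± 0.43 (SE, adjusted p = 0.151) and -1.16 ± 0.45 (SE, adjusted p = 0.128) for the second probe set, where 8.63% of all probe sets were called in place of 15.5%. In D298 fat alone it held, at -1.67 ± 0.36 (SE, adjusted p = 0.00457).

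ALB, the albumin of hepatocytes, had 90.3, 203 and 8392 in fasted fat, against 105, 191 and 9507 in fed fat, and at least 35472 on every liver array, and its fasting difference in fat was -0.67 ± 0.83 (SE, adjusted p = 0.624). Of the 15 hepatocyte genes 1 was called higher in fasted fat, APOA1 (0.70 ± 0.09 SE, adjusted p = 9.65e-06, limma), and none lower, with a median of -0.48. With the hepatocyte list added to the sarcomere signal as a covariate CA3 fell by 1.55 ± 0.27 (SE). Over all probe sets in fat 15.1% were called higher and 10.1% lower when fasted. Of the 16 adipocyte genes 2 were called higher, PCK1 (1.45 ± 0.37 SE), an enzyme of glyceroneogenesis, and the adipokine CFD (0.44 ± 0.11 SE). The 3 called lower were DGAT2, which makes triglyceride (-1.83 ± 0.11 SE), the lipoprotein lipase LPL (-1.03 ± 0.13 SE) and the transcription factor CEBPA (-0.44 ± 0.14 SE). Of 10 endothelial genes 6 were called higher and none lower, with a median of 0.36, and of 7 fibroblast genes none was called higher and 3 lower, with a median of -0.26. None of 8 macrophage genes was called. With the adipocyte list added to the sarcomere signal as a covariate, fasted minus fed CA3 was -1.36 ± 0.39 in N298 fat (SE, adjusted p = 0.0202, limma). In D298 fat it was -1.83 ± 0.45 (SE, adjusted p = 0.0114). Since genes of this list were themselves called for fasting, in both directions, the covariate does not measure adipocyte content alone. The endothelial, fibroblast and macrophage lists were not taken as covariates, and the part of any cell type in the CA3 result was not tested.

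The other carbonic anhydrases did not move in 1 direction. Of 14 listed genes 3 were measured. CA12, a membrane-bound enzyme, had 464, 622 and 935 in fasted fat, against 297.7, 450.2 and 657 in fed fat (lowest, median, highest), and was higher by 0.51 ± 0.11 (SE, adjusted p = 0.00119, limma). CA11, a relative without catalytic activity, was dim, with a median of 12.4 in fasted fat and 37.4 in fed fat, and fell by 1.41 ± 0.50 (SE, adjusted p = 0.0437). CA9 differed by 0.06 ± 0.20 (SE). None of the 3 had a called slope on the sarcomere signal, where 0.488% of all probe sets had 1.

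The sarcomere genes and CKM were also read in liver. The highest liver signal was 59.6 for TTN, 53.7 for MYL1, 53.0 for TNNC2, 72.7 for TNNT3, 93.3 for CKM and 599 for NEB, whose liver median of 139 lay near the median signal of a liver array, 133. Of the 24 fat arrays 23 exceeded the highest liver array in CKM, 22 in MYL1 and TNNC2, 21 in TTN, 17 in TNNT3 and 13 in NEB. Fat minus liver log2 signal, with the gilt as a random block, was 7.17 ± 1.02 when fasted and 6.67 ± 1.02 when fed for TNNC2 (SE), and 1.77 ± 0.69 when fasted and 3.07 ± 0.69 when fed for NEB (SE). All 7 sarcomere and CKM probe sets were called higher in fat in both feeding states, where 66.3% of all probe sets were called when fasted and 62.1% when fed.

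CA3 exceeded its highest liver value on 6 of 24 fat arrays, none fasted and 6 fed. In liver it had a lowest, median and highest signal of 764, 3778 and 9194 when fasted, against 502, 2154 and 5270 when fed. Fat minus liver CA3 was -0.24 ± 0.35 in fasted gilts (SE, adjusted p = 0.559) and 1.84 ± 0.35 in fed gilts (SE, adjusted p = 1.45e-05, limma). The fasting response of liver CA3 was 0.53 ± 0.40 (SE, adjusted p = 0.557). The response of fat minus that of liver was -2.09 ± 0.50 (SE, adjusted p = 0.00227) for the first and -2.04 ± 0.50 (SE) for the second probe set, where 16.2% of all probe sets were called, and none of the sarcomere genes or CKM was. Liver CA3 had 1556, 3850 and 9194 in N298 gilts, against 502, 1591 and 7989 in D298 gilts, a difference of 0.96 ± 0.40 (SE, 95% interval 0.14 to 1.79) with an adjusted p of 0.951, and no probe set was called for genotype in liver (limma; 1212 at an unadjusted p under 0.05). Fat and liver CA3 of the same gilt, with group means removed, gave r = 0.199 (rho 0.22, permutation p = 0.349 and 0.299; r = 0.105 without the 2 farthest arrays, 0.035 within fasted and 0.429 within fed gilts).

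NEB was the 1 sarcomere gene that was called for fasting in liver. It had a lowest, median and highest signal of 125, 196 and 599 in fasted liver, against 28.2, 86.9 and 143 in fed liver, and 10 of 12 fasted arrays lay above the highest fed one. NEB rose 2.50-fold (log2 1.32 ± 0.25 SE, adjusted p = 0.0018, limma), where 4.47% of all probe sets were called (545 higher, 528 lower; 829 higher and 388 lower with median-centring). It was 1.70 ± 0.35 in D298 liver (SE, adjusted p = 0.0099) and 0.95 ± 0.35 in N298 liver (SE, adjusted p = 0.221), and the D298 value was 1.63 without replicate 3 (adjusted p = 0.0614). The difference, N298 minus D298, was -0.75 ± 0.49 (SE, adjusted p = 0.867). TTN differed by 0.77 ± 0.40 (SE, adjusted p = 0.354) in liver, and MYL1 by -0.65 ± 0.53 and TNNC2 by -0.66 ± 0.57 (SE). Of the 60 other muscle genes none was called higher in fasted liver and 1 lower, FABP3, which fell by 1.43 ± 0.19 (SE). The fasting response of NEB in fat minus that in liver was -1.30 ± 0.97 (SE, adjusted p = 0.414).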

How the data were processed

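Signals of 48 porcine Affymetrix arrays were used, 24 a tissue. The deposited values are linear signal intensities that the authors made with MAS5 in the affy package, per the submitters' processing notes, which name no version; in the deposited table the 2%-trimmed mean is 500 on every array. The genome build is not given in the sources used here. Log2 was taken with nothing added, 124 control probe sets were left out of 24123, and no dim probe set was removed. In limma 3.58.1 (R 4.3.3; lmFit, eBayes with trend) each tissue's model held 4 groups and a fixed block term for the 6 replicate numbers, because the series' design text speaks of blocks; same-numbered arrays of a tissue deviated together only weakly (median r 0.017 in fat and 0.0075 in liver over 36 pairs). p values are 2-sided and adjusted by Benjamini and Hochberg over 23999 probe sets, and a call is an adjusted p under 0.05. For fat against liver the gilt was a random effect (intra-gilt correlation 0.048); in 22 of 24 cases the fat array most like a liver array within its group had the same number. For lists each gene was represented by its probe set with the highest mean log2. Named genes were all members, all measured carbonic anhydrases, up to 6 called list members a direction, and the 5 genes most like each pattern; the slopes named were chosen after their values were seen. Members and lists were chosen with earlier results of these data known. The replicates are separate gilts. The number of arrays limits precision. The models were tested on simulated data. Figures used Matplotlib 3.10.9, permutations SciPy 1.17.1.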

Additional observations from a re-analysis of the deposited data

Results flagged for a closer look

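The fasting response of CA3 differed between the tissues, at -2.09 for the first and -2.04 for the second probe set (log2, fat minus liver). In 72 groups of 6 arrays 6 held 1 array far from its nearest neighbour (Dixon's ratio above 0.625), and all 6 were in D298 liver. Chance gives this in about 1 of 20 groups of independent, normally distributed values. Here the groups share arrays, and all flagged values but that of NEB are dim. That rate need not hold, and nothing is read from the count. NEB was 599 on fasted array 2, against a median of 195 on the others. CKM was 11.5 on fasted array 4, against 68.4. MYL1 was 1.28 on fasted array 3, against 40.1, and 8.63 on fed array 5, against 35.3. TNNT3 was 6.52 on fasted array 2, against 42.0, and 7.24 on fed array 2, against 60.8.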

How the results depend on the processing

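Each of 79 results was recomputed under other processing, in 870 comparisons. The fall of CA3 in fasted fat, averaged over the genotypes, kept its direction and its call in every one, from -1.97 to -1.22, and at equal sarcomere signal in every one but that on the arrays above the gap with the covariate (-1.31, adjusted p = 0.0675). Within 1 genotype its direction held in each setting but not its call: in N298 fat that was lost with the RNA quality ratio (-1.05), without replicate 1 or 4 (-1.12, -1.08) and on either side of the gap (-1.63, -1.28), and in D298 fat on the arrays above the gap (-1.17). At equal sarcomere signal the calls of the first CA3 probe set within 1 genotype were lost in the same settings. The fits on 1 side of the gap and with the hepatocyte list were chosen after seeing the data. Fits without each replicate number in turn gave -1.73 to -1.40 for CA3 and 4761 to 6164 calls for fasting in fat, 667 to 901 in liver (667 without replicate 3) and 90 to 135 for the slope. Without the replicate block CA3 at equal sarcomere signal was -1.56, and the pairing by number changed no call of a member. Calls for the slope were 180 without that block, 177 with it as a random effect, 58 among brighter probe sets, 69 with the RNA quality ratio and 9 without the arrays above the gap. With the RNA quality ratio calls for fasting in fat were 4664 (against 6048), 3926 at equal sarcomere signal (against 6069) and 2071 in N298 fat (against 3718). Calls for fasting in fat were 3186 without the arrays above the gap and 2313 without those below, where fewer arrays entered. For other changes the cause was not tested. Values called in neither setting had another sign in 90 comparisons, among them the fasting values of sarcomere genes in fat. The dim liver signals of the sarcomere genes other than NEB limit what can be read there.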

Other observations

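Among the 18 genes on no list with a called slope on the sarcomere signal, picked here after their values were seen, were further muscle proteins: TMOD4 (0.29 ± 0.04 SE), which caps thin filaments, PFKM (0.33 ± 0.06 SE), the muscle phosphofructokinase, FITM1 (0.38 ± 0.07 SE), which acts in lipid droplet formation in muscle, and PDLIM5 (0.38 ± 0.05 SE), a protein of the sarcomere's Z disc. The largest was a probe set annotated to the cytoplasmic actin ACTG1, at 1.12 ± 0.06 (SE), which is the size seen for MYL1. No probe set carried the symbol of the skeletal muscle actin ACTA1, and the probe sequences were not used here.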
